A study of Danio rerio and Aquarana catesbeiana with 12 samples.

Results

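The genes described here make melanin and build the melanosome, the organelle that stores it, and they were measured in zebrafish retinal pigment epithelium (RPE), the pigmented cell sheet behind the photoreceptors. They were chosen by gene symbol from a fixed list of 10, of which 8 were found in the zebrafish table of 18315 transcript records: mitfa, gpr143, tyr, tyrp1b, dct, oca2, slc45a2 and slc24a5. The symbols silva and tyrp1a were not found. RefSeq (assembly GRCz12tu) lists silva as an older name of the gene whose accession stands in the table as pmela. A further record is named tyrp1 (tyrosinase-related protein 1) and its accession was not matched to RefSeq. Both are reported beside the 8 and stand outside their counts, and they were added after their values were seen.

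The samples were dissected RPE from zebrafish given thyroid hormone for 3 weeks (3 libraries) and from zebrafish given only the vehicle over the same time (3 libraries). Strain, age, hormone form and dose, and whether fish were pooled, are not given in the sources used here. Nothing in the labels ties each replicate to its own fish, and p-values here cover no more than the spread among these libraries, part of which may be technical. The series also holds bullfrog RPE, whose contigs carry no gene names and were not used here. The question of the comparison was which transcripts differ in the RPE after thyroid hormone, in a study of the enzyme Cyp27c1 and the shift of visual sensitivity to longer wavelengths.

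Melanin synthesis starts from tyrosine inside the melanosome. Tyrosinase, the product of tyr, catalyses the first and limiting step, and the tyrosinase-related proteins (dct, tyrp1) act on later intermediates of the black-brown pigment. Transporters in the melanosome membrane (oca2, slc45a2, slc24a5) set the ions and pH that the enzymes need, the Pmel protein forms the fibrils on which melanin is laid down, and the transcription factor Mitf switches on many of these genes. In the RPE the pigment is made mainly early in development, and the adult cell keeps long-lived granules that absorb stray light.

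Library totals ran from 6647597 counts, in hormone replicate 1, to 12530697, in hormone replicate 2. Hormone replicate 1 had the highest inner retina and cone levels, at one end of a range over the libraries. Its summed level of 24 inner retina and Muller glia markers was 2433 CPM (the count relative to the TMM-scaled library total), against 1258 and 1594 in hormone replicates 2 and 3 and 1330 to 2039 with vehicle. By mean log2 CPM of that list, hormone replicate 1 (5.50) was followed by vehicle replicates 1 and 2 (5.27 and 5.09). Hormone replicates 3 and 2 (4.50 and 4.24) came next, and vehicle replicate 3 was lowest (4.14). In hormone replicate 1 the 15 cone markers summed to 23159 CPM, against 9510 to 16741 in the other 5 libraries. Its 13 rod markers summed to 56939 CPM, within the hormone range of 50074 to 60733 and below the vehicle range of 74877 to 86741. By mean log2 CPM of the rod list, however, hormone replicate 1 (10.43) lay within the vehicle range of 10.25 to 10.45. By that measure it also lay above hormone replicates 2 and 3, so the place of its rod level depended on the measure. RPE markers were abundant in every library, among them rpe65a, the retinoid isomerase of the RPE, at 6688 to 32335 CPM and the visual-cycle opsin gene rgrb at 2412 to 8664 CPM. Other genes of the RPE list were low, such as tfec at 4.52 to 7.70 CPM and best2 at 0.206 to 2.999 CPM. The rod opsin gene rho, at 25012 to 52765 CPM, exceeded rpe65a in 5 of the 6 libraries. Results that rest on hormone replicate 1 are therefore given with and without it.

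In vehicle RPE, dct and tyrp1b were the most abundant of the 8 per transcript length. On the RPKM scale (CPM per kilobase of transcript), dct stood at 556 ± 44.8 and tyrp1b at 395 ± 57.5 (SD, n = 3 each), with every vehicle library higher in dct than in tyrp1b. Next came oca2 at 34.4 ± 7.82 and slc45a2 at 32.0 ± 2.57 RPKM, which did not differ beyond their spread. They were followed by tyr at 18.8 ± 1.06 and gpr143 at 13.1 ± 1.89 RPKM, whose vehicle libraries did not overlap. Lowest were mitfa at 7.86 ± 1.85 and slc24a5 at 7.30 ± 0.705 RPKM, which did not differ beyond their spread. Outside the 8, the fibril gene pmela stood at 232 ± 29.2 RPKM and the tyrp1 record at 16.0 ± 1.21. The gene of the first enzyme, tyr, was measured far below dct and tyrp1b in the same libraries, but not below the tyrp1 record.

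With hormone, none of the 8 genes passed the test: edgeR's quasi-likelihood test, adjusted over all 18315 records, called 0 of 8 at 0.05, beside 0.00546% of all records called in either direction. The fitted log2 fold changes (hormone over vehicle) were all positive, from 0.004 for dct to 0.80 for slc24a5, with a median of 0.67 against 0.01 over all records, of which 51.7% were positive. The sign for dct turned with total count scaling, and those for mitfa and tyr turned without hormone replicate 2. At an unadjusted p under 0.05 there were 2 of 8, slc24a5 and gpr143, beside 3.70% of all records that were higher with hormone at that level. DESeq2 also called 0 of 8 (2 of 8 at an unadjusted p under 0.05), beside 1.60% of all records called in either direction and 0.907% called higher, with 4.33% higher at the unadjusted level. In bulk tissue, fewer cells of a type and less RNA per cell cannot be told apart.

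The regulator gene mitfa, whose product activates pigment genes in melanophores, stood at 8.14, 17.8 and 16.2 CPM with hormone and 10.1, 11.7 and 15.8 CPM with vehicle. Hormone replicate 1 was the lowest library and the groups overlapped; the fitted difference was 0.17 on the log2 scale (SE 0.32, edgeR adjusted p = 0.981). The ocular albinism gene gpr143, for a receptor in the melanosome membrane that controls melanosome size and number in mammals, stood at 23.4, 46.8 and 42.6 CPM with hormone and 24.7, 18.7 and 23.8 with vehicle. Hormone replicates 2 and 3 lay above every vehicle library and replicate 1 lay within the vehicle range, with a log2 fold change of 0.75 (SE 0.28, edgeR adjusted p = 0.66).

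Among the enzymes, tyr stood at 22.8, 74.6 and 49.1 CPM with hormone and 37.6, 34.7 and 38.8 CPM with vehicle. The vehicle libraries lay close together, and the hormone libraries lay on both sides of them (log2 fold change 0.40, SE 0.39, edgeR adjusted p = 0.95). The gene tyrp1b, whose relative in mammals acts late in the synthesis of black-brown pigment and which was the most abundant of the 8 with hormone, stood at 605, 1779 and 1659 CPM with hormone and 802, 671 and 901 with vehicle (edgeR log2 fold change 0.77, SE 0.41, adjusted p = 0.828). Again replicate 1 was below every vehicle library while the other hormone libraries were above every one. For dct, whose enzyme (dopachrome tautomerase) acts between the steps of tyr and tyrp1, the level was 542, 1277 and 1093 CPM with hormone and 977, 887 and 1042 with vehicle. Hormone libraries averaged 971 ± 382 and vehicle libraries 969 ± 78.0 CPM (SD, n = 3 each), and the fitted log2 fold change of 0.004 (SE 0.33, edgeR adjusted p = 0.9998) turned to -0.080 with total count scaling. The table's dct record is named as transcript variant 2 of the gene.

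Of the transporter genes, oca2, for a melanosomal anion channel protein that raises melanosome pH in mammals, stood at 70.7, 181 and 151 CPM with hormone and 70.2, 80.2 and 108 with vehicle (edgeR log2 fold change 0.64, SE 0.36, adjusted p = 0.841). For slc45a2, a sugar and proton transporter family gene altered in albino animals, the level was 43.1, 130 and 109 CPM with hormone and 56.5, 54.1 and 63.1 with vehicle (edgeR log2 fold change 0.70, SE 0.38, adjusted p = 0.83). In both genes hormone replicate 1 lay within or below the vehicle range and replicates 2 and 3 above it. The slc24a5 gene, the cation exchanger gene of the zebrafish golden mutant, stood at 15.1, 33.4 and 27.4 CPM with hormone and 13.5, 14.2 and 16.2 with vehicle. Its hormone replicate 1 lay within the vehicle range and the other hormone libraries above it (log2 fold change 0.80, SE 0.29, edgeR adjusted p = 0.657).

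Of the records outside the 8, pmela stood at 499, 1448 and 1248 CPM with hormone and 627, 550 and 708 with vehicle (edgeR log2 fold change 0.76, SE 0.39, adjusted p = 0.827). The tyrp1 record stood at 36.7, 108 and 99.0 CPM with hormone and 32.0, 34.9 and 37.2 with vehicle, a log2 fold change of 1.23 (SE 0.38, edgeR adjusted p = 0.552). Only its hormone replicate 1 kept the groups from separating, since that library lay within the vehicle range. Genes of the tyrosinase family are related in sequence, and the treatment of reads shared by tyrp1 and tyrp1b is not stated in the sources used, so the split between these 2 records is uncertain. In the authors' deposited table the log2 fold changes of the 8 ran from 0.00 to 0.80 after the sign was turned to hormone over vehicle, and 0 of the 8 carry the authors' mark. By those deposited p-values 0 of 8 passed after adjustment, beside 0.934% of all records (0.524% higher with hormone), and 4 of 8 had an unadjusted p under 0.05, beside 2.9% higher.

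**Figure D1:**
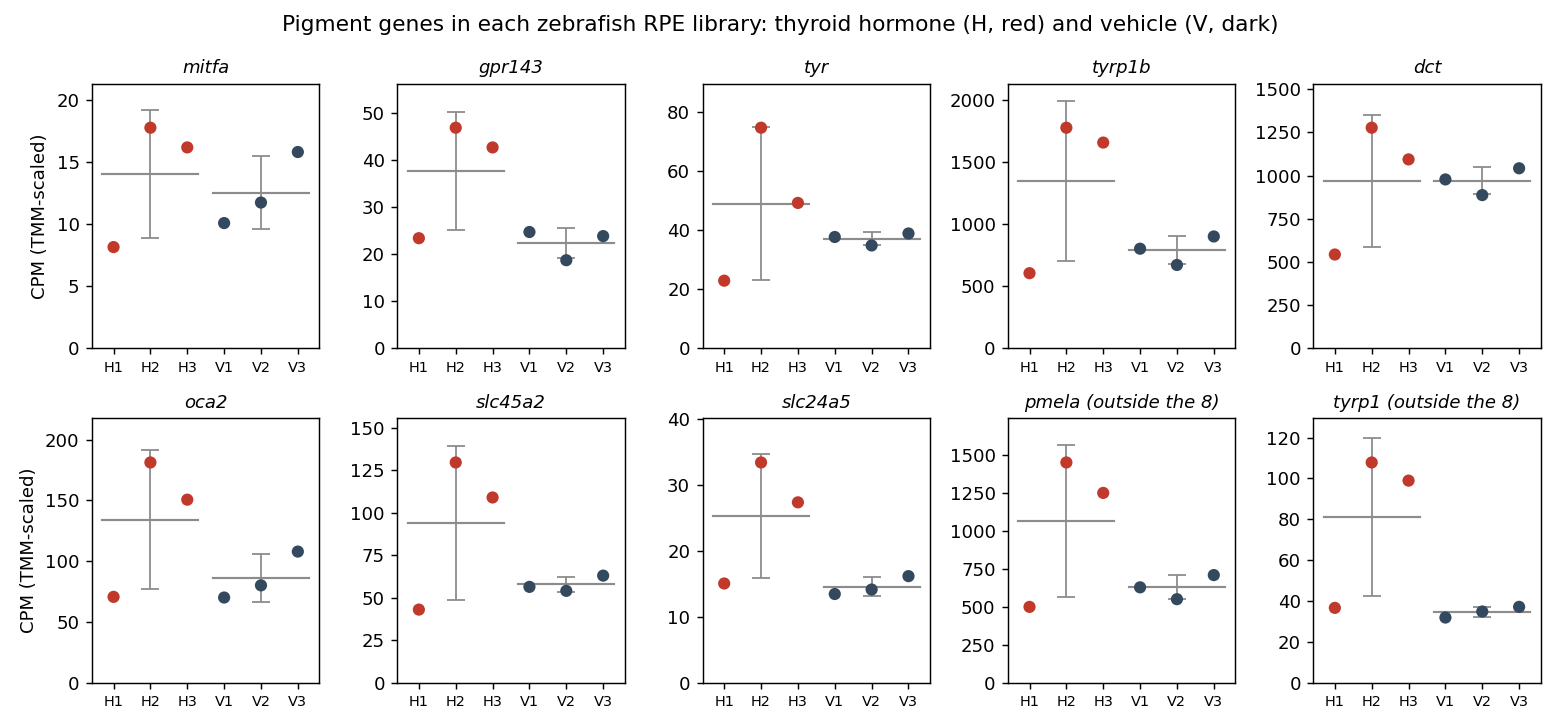
Level of each gene in CPM (linear axes from 0) in hormone libraries H1 to H3 and vehicle libraries V1 to V3; grey lines and bars are group means and SD (n = 3). In every panel H2 and H3 lie above all vehicle libraries, while H1 lies within or below the vehicle range.

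An exact permutation test on log2 CPM, two-sided, gave p from 0.2 to 1 for the 8 genes, and 3 against 3 libraries cannot go below 0.1. The groups overlapped in CPM for each of the 8 genes, whereas 6.86% of all records had every hormone library above every vehicle library. In 5 of the 8, hormone replicate 1 was the lowest of all 6 libraries, which held for 27% of all records. The spread among hormone libraries was wide: from replicate 1 to replicate 2 the members differed by 2.01-fold (gpr143) to 3.27-fold (tyr), while the highest and lowest vehicle libraries differed by 1.12-fold (tyr) to 1.57-fold (mitfa).

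The mean log2 CPM of the 8 was 5.75, 7.08 and 6.83 with hormone and 6.07, 6.01 and 6.31 with vehicle. The summed level of 17 RPE markers was 21158, 58105 and 48104 CPM with hormone and 18001 to 18886 with vehicle, of which rpe65a, itself higher in all hormone than in all vehicle libraries, made up a large part. The list was mixed: its log2 fold changes were positive in 10 and negative in 7, and edgeR called 0. Singled out after their values were seen, rpe65a and cx43 lay higher in all hormone libraries. In the same way best1 (LOC560608 in the file), best2 and lratb lay lower in all of them. Of all records, 6.86% lay higher and 6.4% lower in this way. From this list DESeq2 called rpe65a higher (adjusted p = 0.000469) and lratb lower (adjusted p = 0.000224), beside 1.6% of all records called. The lratb gene stood at 6.67, 18.7 and 15.3 CPM with hormone and 59.5, 50.4 and 46.5 with vehicle. The stra6 gene, for the RPE's retinol uptake receptor, stood at 2426, 6657 and 5787 CPM with hormone and 3525 to 3893 with vehicle. Hormone replicate 1 was its lowest library, as it was in 9 of the 17, beside 27% of all records. Without hormone replicate 1, edgeR called 7 of the 17, beside 0.573% of all records. In that setting 7 lay higher and 4 lower in all hormone libraries, beside 17.5% and 15% of all records. In hormone replicate 1, the lowest library for 5 of the 8 genes, the summed inner retina and cone markers were at their highest. In that library oca2, gpr143 and slc24a5 lay within the vehicle range. The part of tissue makeup in these differences was not tested beyond the fit with the inner retina score given next.

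**Figure D2:**
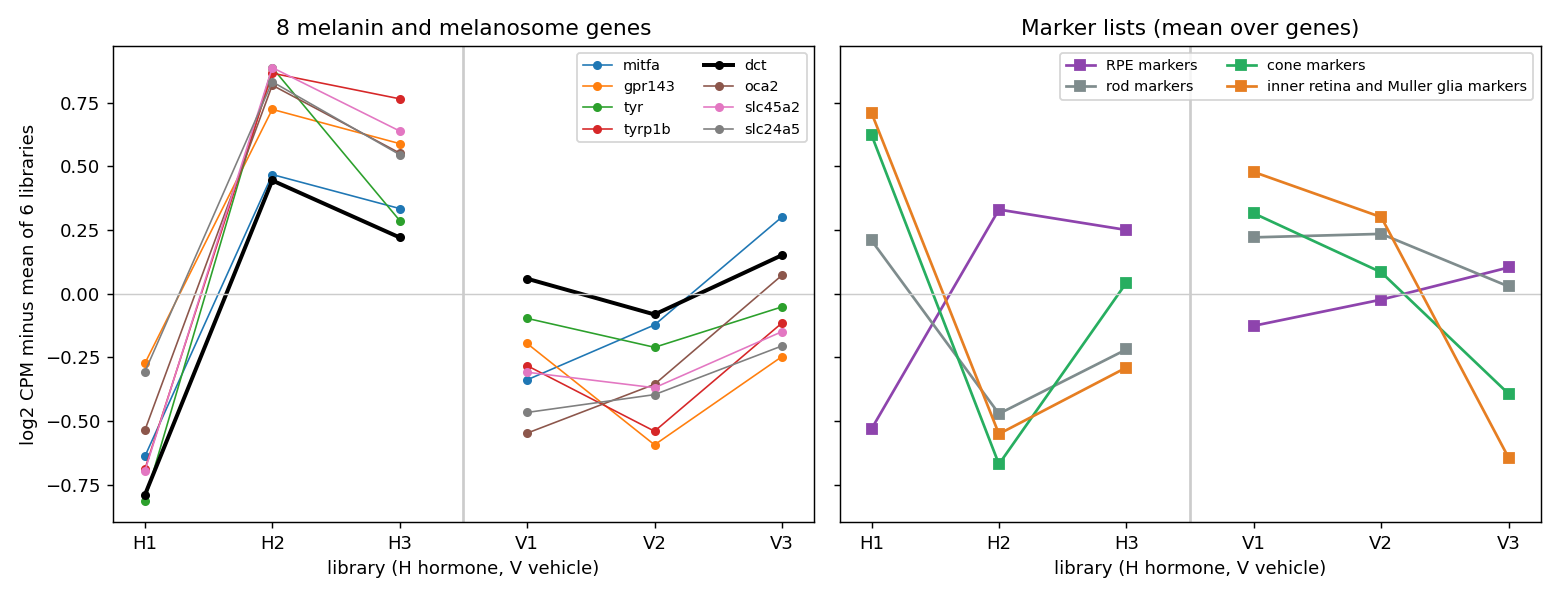
Log2 CPM minus the mean of the 6 libraries, for the 8 genes (left; dct in black) and for the mean of 4 marker lists (right), in hormone libraries H1 to H3 and vehicle libraries V1 to V3; lines join libraries of one group and give no order. H1 lies below the mean of the 6 libraries in the 8 genes and the RPE markers, and above it in the cone and inner retina markers.

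Without hormone replicate 1, all hormone libraries lay above all vehicle libraries in each of the 8 genes, beside 17.5% of all records. The log2 fold changes then ran from 0.29 (dct) to 1.12 (tyrp1b), with a median of 0.97 against -0.03 over all records, of which 47.2% were positive. In that fit edgeR called 1 of the 8, slc45a2 (log2 fold change 1.04, SE 0.13, adjusted p = 0.0363), beside 0.573% of all records (0.431% higher), and 6 of 8 had an unadjusted p under 0.05, beside 8.14% of all records higher with hormone at that level. The next smallest edgeR adjusted p were 0.0535 for tyrp1b, 0.0544 for slc24a5 and 0.0604 for gpr143, while mitfa and dct had 0.415 and 0.419. Outside the 8, the tyrp1 record passed there at 2.98-fold (adjusted p = 0.0138). In the fit without hormone replicate 1, the 24 inner retina and Muller glia markers had a median log2 fold change of -0.53, with 3 positive. Of the 13 rod markers, 10 then lay lower in all hormone libraries, beside 15% of all records. The part of tissue makeup in that fit was not tested. Leaving out any of the other 5 libraries called 0 of 8. With the inner retina score (mean log2 CPM of that marker list) as a covariate and all 6 libraries, edgeR also called 0 of 8, with an adjusted p of 0.0933 for slc24a5 as the smallest, beside 2.18% of all records called (1.15% higher). At an unadjusted p under 0.05 there were 3 of 8 in that fit, beside 8.44% of all records higher. Its log2 fold changes ran from -0.14 (dct) to 0.68 (slc24a5), each of the 8 below its value in the fit of all 6 libraries without the covariate.

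**Figure D3:**
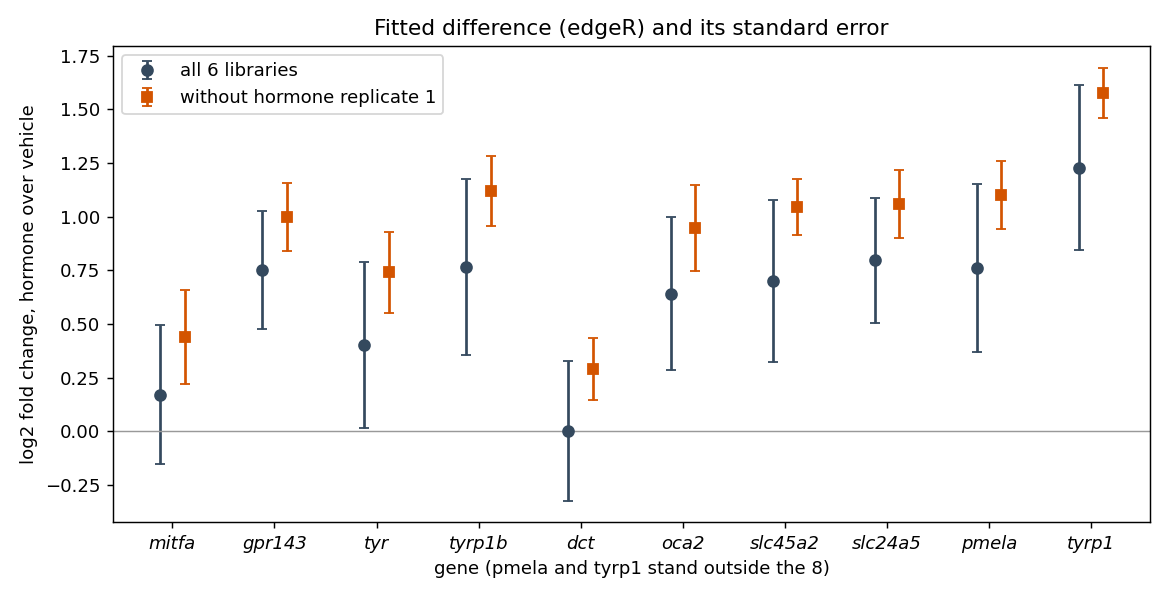
Fitted log2 fold change of each gene, hormone over vehicle, with its standard error, from all 6 libraries (circles) and without hormone replicate 1 (squares). Without that library the estimates lie higher, with smaller errors, and dct keeps the smallest one at 0.29.

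Relative to most of the other pigment genes in the same library, dct stood lower with hormone. Such a ratio depends neither on the library total nor on the scaling, and it was examined after the levels had been seen. There were 0.897, 0.718 and 0.659 reads of dct per read of tyrp1b with hormone, and 1.22, 1.32 and 1.16 with vehicle. The groups did not overlap, and hormone replicate 1 lay on the side of the other hormone libraries. On average the ratio was 1.64-fold lower with hormone (log2 difference -0.71, with SDs of 0.23 and 0.10 among hormone and vehicle libraries).

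The dct ratio was apart between the groups for 6 of the 7 other members, lower with hormone each time. As dct had the smallest fold change of the 8 and was picked after the levels were seen, the shared direction follows largely from that choice. The 7 ratios also share dct. By comparison, 4.74% of all other records, at any level, stood higher against dct in all hormone libraries, with no overlap, and 2.96% lower. Among pairs of records with a mean log2 CPM reaching 3, 15.7% had ratios that did not overlap. Reads of dct per read of slc24a5 stood at 36.0, 38.2 and 39.9 with hormone and 72.5, 62.6 and 64.3 with vehicle, a 1.75-fold difference. For gpr143 the ratio was 23.2, 27.3 and 25.6 with hormone and 39.6, 47.5 and 43.8 with vehicle, 1.72-fold. The differences for oca2 and slc45a2 were both 1.56-fold, and for tyr the difference was smaller, at 1.25-fold, with 23.8, 17.1 and 22.3 against 26.0, 25.5 and 26.9. For mitfa the groups overlapped. Outside the 8, dct per pmela stood at 1.09, 0.882 and 0.876 with hormone and 1.56, 1.61 and 1.47 with vehicle. Against pmela, tyr was lower too, at 0.0457, 0.0515 and 0.0394 with hormone and 0.0599, 0.0632 and 0.0548 with vehicle, while the other 6 members overlapped. Against the RPE gene rpe65a all 8 were lower in every hormone library, as were 76.7% of all other records (0.071% were higher).

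**Figure D4:**
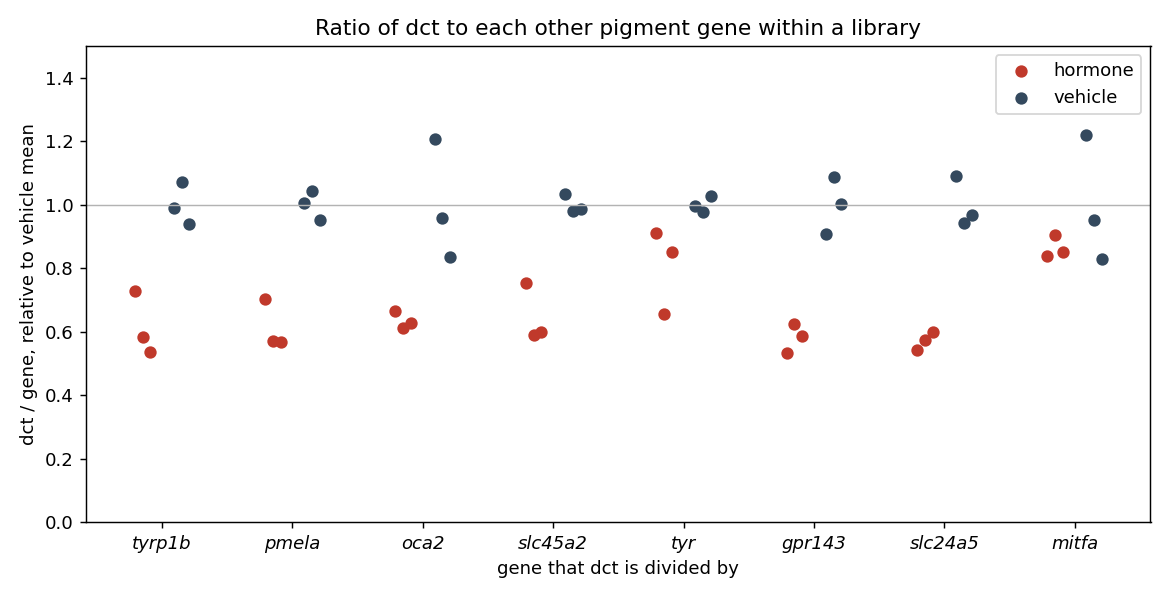
Reads of dct per read of each other gene, divided by the vehicle mean of that ratio, on a linear axis from 0; red points are the 3 hormone and dark points the 3 vehicle libraries. The hormone points lie below all vehicle points for every gene but mitfa.

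Over all 28 pairs of the 8 genes, 12 had ratios that did not overlap between the groups, beside 15.7% of all pairs of records with a mean log2 CPM reaching 3. The 28 pairs share their genes and are not independent. An exact permutation test, two-sided, gave each of these its smallest possible p of 0.1, and 0.233 after Benjamini-Hochberg adjustment over the 28 pairs. The gene dct was part of 6 of them, tyr of 4, mitfa and slc24a5 of 3 each, and the other 4 genes of 2 each. Like dct, tyr was lower against tyrp1b, at 0.0377, 0.0419 and 0.0296 with hormone and 0.0469, 0.0518 and 0.0431 with vehicle, and against slc45a2 and slc24a5. Of the summed counts of the 8 genes, dct made up 37.2% ± 3.16 with hormone and 48.8% ± 1.46 with vehicle (SD, n = 3 each), and tyrp1b 49.5% ± 3.69 and 39.7% ± 1.55. Both genes together made up most of the sum, so these shares largely restate the ratio of dct to tyrp1b. Per transcript length, tyrp1b (887 and 827 RPKM) exceeded dct (733 and 627 RPKM) in hormone replicates 2 and 3, and in replicate 1 they stood at 302 and 311.

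Genes that assemble melanosomes and move them were covered by 34 measured genes. EdgeR called 0 of them. At an unadjusted p under 0.05 there were 4, all higher with hormone, beside 3.7% of all records higher at that level. DESeq2 called 1, the gpnmb gene, beside 1.6% of all records called in either direction and 0.907% called higher. Log2 fold changes were positive in 21 and negative in 13, with a median of 0.09. In 7 all hormone libraries lay above all vehicle libraries and in 0 below, beside 6.86% and 6.40% of all records. Those 7 were gpnmb, vps11, vps18, vps33a, vps39, ap3s2 and snapin, of which vps33a, ap3s2 and snapin are named after their values were seen. Without hormone replicate 1 the counts were 16 above and 0 below, beside 17.5% and 15% of all records, and edgeR called 0. The products of the vps genes are subunits of the HOPS complex, which tethers membranes to lysosomes, and vps16, for a further subunit, overlapped between the groups (log2 fold change 0.27, SE 0.17). The vps39 gene stood at 78.2, 88.2 and 89.6 CPM with hormone and 68.0, 63.8 and 73.2 with vehicle (edgeR log2 fold change 0.32, SE 0.12, adjusted p = 0.687). For vps18 and vps11 (zgc:112329 in the file) the log2 fold changes were 0.34 and 0.34, with edgeR adjusted p of 0.684 and 0.722.

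The gpnmb gene (si:ch211-155k24.6 in the file), for a glycoprotein related to Pmel, had the smallest p of the assembly list and a different order from the 8. It stood at 128, 32.3 and 68.2 CPM with hormone and 17.1, 17.1 and 14.6 with vehicle, so hormone replicate 1 was its highest library. Its log2 fold change was 2.22 (SE 0.47, edgeR adjusted p = 0.291, DESeq2 adjusted p = 0.000785). The pmela paralog pmelb was also highest in hormone replicate 1, at 875, 385 and 567 CPM against 409, 416 and 222 with vehicle (edgeR log2 fold change 0.80, SE 0.37, adjusted p = 0.77). The organelle-size regulator gene lyst and the melanosome motor gene myo5aa, both abundant, stood at log2 fold changes of 0.08 (SE 0.43) for lyst and 0.24 (SE 0.20) for myo5aa.

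Of 14 measured genes for melanosome ions and copper, edgeR called 0, with 0 at an unadjusted p under 0.05, and DESeq2 called 0. Their log2 fold changes were positive in 11 and negative in 3, with a median of 0.06. In 1 all hormone libraries lay above all vehicle libraries and in 0 below, beside 6.86% and 6.40% of all records. Without hormone replicate 1 the counts were 6 and 0, beside 17.5% and 15% of all records, and edgeR called 0. The proton pump gene atp6v1e1b, with the smallest p, stood at 94.7, 95.3 and 104 CPM with hormone and 90.0, 72.4 and 75.5 with vehicle (edgeR log2 fold change 0.31, SE 0.14, adjusted p = 0.755). The chloride-proton exchanger gene clcn7 stood at 45.9, 82.0 and 83.0 CPM against 54.9, 43.1 and 52.6, with hormone replicate 1 within the vehicle range (log2 fold change 0.49, SE 0.25). The further pump genes atp6v1h, atp6v0ca, atp6v0cb and atp6v0d1 had log2 fold changes of 0.25, 0.17, 0.12 and 0.04, and the exchanger gene slc24a4b (LOC100334346) -0.29.

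Of 19 measured regulators and receptors of pigment cells, edgeR called 0, with 0 at an unadjusted p under 0.05, and DESeq2 called 0. Their log2 fold changes were positive in 8 and negative in 11, with a median of -0.02. The groups overlapped in all 19. Without hormone replicate 1, 2 lay higher and 2 lower in all hormone libraries, beside 17.5% and 15% of all records, and edgeR called 0. The mitfa paralog mitfb stood at 11.7, 21.6 and 21.1 CPM with hormone and 19.8, 20.0 and 27.1 with vehicle (edgeR log2 fold change -0.29, SE 0.27, adjusted p = 0.948). The RPE determinant otx2 stood at 115, 219 and 211 CPM against 217, 222 and 231 (log2 fold change -0.30, SE 0.25). The cation channel genes trpm1a (trpm1 in the file) and trpm1b (zgc:162329), expressed in pigment cells and in retinal bipolar cells, gave log2 fold changes of -0.63 (SE 0.36) for trpm1a and -0.38 (SE 0.37) for trpm1b. In these 4 genes hormone replicate 1 was the lowest library, as in 5 of the 8, but hormone replicates 2 and 3 did not lie above the vehicle range. The endothelin receptor gene ednrba (ednrb1 in the file) stood at 6.40, 0.495 and 3.19 CPM with hormone and 0.714, 1.17 and 1.40 with vehicle (log2 fold change 1.59, SE 0.83), and otx1a, which RefSeq calls otx2a, at 0.934 to 2.40 CPM (log2 fold change -0.57, SE 0.39).

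Melanophores of the choroid and sclera use the same pigment genes as the RPE. Of 9 symbols on the neural crest melanophore list 4 were measured, and their sum was 684 to 1491 CPM with hormone and 1367 to 1845 with vehicle, most of it trpm1b. None of the 4 was at 0 in any library, but erbb3b was low, at 0.812 to 8.01 CPM. Of these, sox10, a neural crest regulator also used by glia, stood at 49.1, 115 and 98.8 CPM with hormone and 86.2, 78.0 and 94.5 with vehicle, and kita at 76.3, 40.1 and 39.0 against 48.0, 61.0 and 46.9. The 4 iridophore markers summed to 203 to 304 CPM with hormone and 151 to 165 with vehicle, of which pnp4a made up 102 to 283 and 112 to 130. In hormone replicate 1 tfap2a made up 76.9 CPM of that sum. By mean log2 CPM the iridophore list overlapped between the groups, at 4.95, 3.41 and 4.31 with hormone and 3.58 to 3.99 with vehicle. The 4 xanthophore markers summed to 151 to 342 CPM with hormone and 245 to 316 with vehicle. The 14 blood and leukocyte markers summed to 891 to 1668 and 1377 to 4059 CPM. The part of other pigment cells in the levels of the 8 genes was not tested.

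The records nearest to the mean pattern of the 8 genes were found by the root mean square difference of centred log2 CPM over the 6 libraries, among the 11024 records whose mean log2 CPM reached 3. The nearest was cdr2l, at a difference of 0.0453, followed by cyp2p9 at 0.0491, flnbl at 0.0620 and sgpp1 at 0.0631. The other 4, up to 0.0786, were the FAM46C-like record LOC100149701, the FK506-binding protein 15-like record LOC100330102, ddr1 and p3h2 (LOC566697). The median record was at 0.50, and the 8 genes themselves lay from 0.108 (slc45a2) to 0.26 (dct) from their own mean. The xenobiotic enzyme family gene cyp2p9 stood at 132, 322 and 300.5 CPM with hormone and 172, 166 and 198 with vehicle. The collagen receptor gene ddr1 stood at 157, 429 and 327 CPM against 187, 182 and 254.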

How the data were processed

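Total RNA of dissected zebrafish RPE was amplified with a kit and sequenced in 1 lane, per the labels' protocols. Bowtie 0.12.7 and edgeR are named in the submitters' processing notes. Genome build, transcript set and use of strand are not given in the sources used here. The authors deposited raw counts per transcript record and library. The deposited score of each library is a rounded RPKM (all values equal to count over length and total within 0.6 RPKM plus 0.6%). The authors also deposited RPKM group means, transcript lengths, and log2 fold changes with p-values. The sign of the fold changes was turned here to hormone over vehicle. A nameless row equal to the column totals was left out. No coordinates are given, since the build is not named.

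Levels are CPM with TMM factors, and RPKM here is that CPM per kilobase. Groups were tested with edgeR 4.0.16 (R 4.3.3; quasi-likelihood, default settings) over all 18315 records, none of which filterByExpr removed, with Benjamini-Hochberg adjustment at 0.05. The SE is the log2 fold change over the square root of F. Log2 CPM used a prior count of 2. DESeq2 1.42.0 (18307 records with an adjusted p), limma 3.58.1 voom, other scalings, the earlier robust form of the edgeR fit, the authors' deposited p-values, no filter, a replicate block, an inner retina covariate and leaving out each library were alternatives. The fits were tested on simulated data. There edgeR recovered 6% of genes changed by 1 on the log2 scale and 66% of those changed by 2, and DESeq2 32% and 88%. Of 133 genes called by edgeR 6 were unchanged, and of 206 called by DESeq2 48 were. In the real data edgeR called 1 of the 18315 records. There cyp27c1 and cyp24a1, at log2 fold changes of 5.18 and 3.84, had edgeR adjusted p of 0.0571 and 0.228. Recovery in these data may thus be lower than in the simulation. A count of 0 called by edgeR therefore does not show that changes are absent, and this holds for changes above 1 too. Each member has 1 record. List genes were matched by file symbol, or through RefSeq accessions (12528 of 18315 records matched). All 8 members are named whatever their p; of each wider list the 5 genes with the smallest p and the 3 most abundant are named, and marker genes that define a cell type are named beside their list; the 8 nearest records are named by distance. Members and lists were chosen with earlier results of these data known. The ratios between members were chosen after seeing the data. Counts behind a member's value ran from 61 to 21539 reads per library, and amplified reads are not independent molecules.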

Additional observations from a re-analysis of the deposited data

How the results depend on the processing

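Of the 128 combinations of a member with an alternative, 117 kept direction and side of the threshold, dct is listed at 0, with no direction, in the authors' deposited table, and slc45a2 passed in 1, without hormone replicate 1. The sign turned in the other 9. Some of the 117 agreements were fixed in advance. The fit without the filter equalled the main fit, since the filter removed no record. Summing the records of a symbol left the counts of each member unchanged, as each has 1 record. The earlier robust form of the edgeR fit gave the same fold changes, so direction could not turn there. For dct the log2 fold change was -0.080 with total count scaling, -0.11 with limma voom, -0.081 with the replicate block, -0.14 with the inner retina covariate and -0.24 to 0.29 with 1 library left out. For mitfa it was -0.028 to 0.44 and for tyr -0.030 to 0.74 with 1 library left out, negative without hormone replicate 2. With 1 library left out, 0 to 1 of the 8 were called, and 0 to 8 had groups that did not overlap in CPM: 8 without hormone replicate 1 and 1, slc24a5, without vehicle replicate 3. With total count scaling 1, slc24a5, did not overlap. The dct ratio was apart for 6 members, or 7 without vehicle replicate 3. Groups that are apart stay apart when a library is left out, so this count could not fall and does not test the result.

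Over all records the quasi-likelihood test called 1, against 8 with total count scaling, 292 with DESeq2, 0 with limma voom (1226 at an unadjusted p under 0.05), 171 by the authors' p-values, 400 with the covariate, 0 at an adjusted p under 0.01, and 0 to 105 with 1 library left out (105 without hormone replicate 1). With the replicate block it called 0, and 0 of the 8. The deviations of same-numbered libraries from their group means correlated at 0.46, -0.39 and 0.10 over genes. Libraries of unlike number also correlated, such as hormone replicate 2 with vehicle replicate 3 at 0.62. These values cannot settle whether the numbers pair the samples. The causes of these changes were not tested. Reads were fewest for mitfa and slc24a5, with 61 and 113 in hormone replicate 1. Their SEs in the main fit (0.32 and 0.29) were not the largest of the 8, which was that of tyrp1b (0.41).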
